A study of Homo sapiens with 12 samples.

Results

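The regions described here are those whose H3K4me2 peak appeared or disappeared when all-trans retinoic acid (ATRA) was given to U-937 cells together with Corin, compared with Corin alone. Overlapping peaks of the ATRA+Corin list and of the Corin list were merged, with an overlap of at least 1 bp. A region with an ATRA+Corin peak and no Corin peak was termed gained, and a region with a Corin peak and no ATRA+Corin peak was termed lost. Of 84143 merged regions, 20088 were gained (23.9%), 5648 were lost (6.71%) and 58407 were shared (69.4%). Gained regions therefore outnumbered lost regions, and with equal numbers of peaks taken from each list the counts were 13239 gained and 7843 lost. Both sets lay mostly in introns and between genes, where they were narrow and weak beside the shared regions.

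U-937 is an established human leukaemia line of the monocytic lineage, described in the labels as AML cells from blood. It received the vehicle DMSO, ATRA, Corin, or ATRA and Corin together, each drug at 0.1 µM, for 24 h before chromatin immunoprecipitation with an H3K4me2 antibody and paired-end sequencing. Each treatment had 2 H3K4me2 libraries and 1 input library, so the 2 lists compared here rest on 6 of the 12 libraries. The authors deposited 1 peak list per treatment. No values per replicate exist in these lists, the spread between replicates is unknown, and no p-value across treatments is given. Intervals are 95% Wilson intervals of a share and cover counting error only, since all regions come from the same few libraries. One cell line was studied, and nothing in the labels says whether the paired libraries came from separate cultures.

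H3K4me2 is a histone mark found at active and poised promoters and enhancers. ATRA binds the retinoic acid receptors, which sit on DNA as heterodimers with the retinoid X receptors. On ligand binding they exchange corepressor complexes for coactivators such as p300. ATRA is known for driving differentiation of myeloid leukaemia cells. Corin is a synthetic hybrid molecule that inhibits both the histone demethylase LSD1, which takes methyl groups off H3K4, and the histone deacetylases of the CoREST corepressor complex. Both lists therefore come from cells in which Corin was present, and the difference between them is the addition of ATRA.

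The marks at cell-type markers matched a myeloid line in part. A peak lay within 1 kb of the start site of 7 of 8 myeloid markers in both lists (SPI1, CD33, LYZ, CEBPA, ITGB2, CSF3R and CD68), whereas MPO, the myeloperoxidase gene, had none in any of the 4 lists. Of 12 markers of other lineages, 4 had such a peak in both lists, CD79A, COL1A1 and PECAM1 among them, and 8 (CD3E, CD3D, PAX5, GATA1, HBB, ALAS2, EPCAM and KRT8) had none. The ATRA+Corin list held 83969 peaks over 108.5 Mb and the Corin list 73997 peaks over 95.02 Mb. The most common background solved from the deposited values gave a relative depth of the H3K4me2 libraries, ATRA+Corin over Corin, of 1.09. For the inputs it was 0.952. In an equal-depth setting, ATRA+Corin summit fragments were thinned and scaled back, and Corin values were scaled for the input. Called peaks were then held to the lowest −log10 p of the lists, 2.02. This kept 83713 ATRA+Corin and 73828 Corin peaks and left 19998 gained and 5666 lost regions. No peak could be newly called, so the counts could hardly change, and the part played by depth was not tested. Limiting both lists to a −log10 q of at least 5, the adjusted significance of a peak against input, left 11486 and 3476, and merging peaks within 1 kb left 10761 and 2407.

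Retinoic acid receptor heterodimers are known to bind direct repeats of the half-site AGGTCA, spaced by 5 bases (DR5), 2 bases (DR2) or 1 base (DR1). These sequences are from the 6 gained regions with the highest −log10 q whose 300 bp around the summit held such a repeat. They are shown because the receptor of the added ligand is known to recognise such letters. A −log10 q is the authors' peak caller's adjusted significance of a peak against input. Sequences are from GRCh38 and run 5′ to 3′ on the strand given, and capitals mark the repeat with its spacer.
DR5 near FCRL4, chr1:157624582-157624638, plus strand: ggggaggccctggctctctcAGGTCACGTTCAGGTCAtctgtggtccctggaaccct
DR5 in TENM4, chr11:78923388-78923444, minus strand: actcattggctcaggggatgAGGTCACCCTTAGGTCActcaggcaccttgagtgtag
DR5 in ABCC6, chr16:16197307-16197363, plus strand: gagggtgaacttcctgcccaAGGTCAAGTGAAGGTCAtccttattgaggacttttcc
DR5 near KLHL25, chr15:85897641-85897697, minus strand: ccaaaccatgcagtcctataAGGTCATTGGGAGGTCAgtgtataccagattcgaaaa
DR2 near ADRA2B, chr2:96082851-96082904, plus strand: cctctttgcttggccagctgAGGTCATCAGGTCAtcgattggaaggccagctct
DR1 near MPHOSPH6, chr16:82283179-82283231, plus strand: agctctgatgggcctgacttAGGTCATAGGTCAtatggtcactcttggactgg

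The strongest of these lay outside genes, 26359 bp from the start site of FCRL4, an Fc receptor-like gene, with a −log10 q of 25.4 and 60 H3K4me2 fragments at the summit. Its region had an ATRA peak and no DMSO peak. The regions in an intron of TENM4, a teneurin gene (−log10 q of 8.45, 29 fragments), and in an intron of ABCC6, a transporter gene (6.98, 36 fragments), also had an ATRA peak and no DMSO peak. The DR5 (6.25, 27 fragments) lying 102486 bp from KLHL25 and the DR1 (8.45, 28 fragments) lying 112737 bp from MPHOSPH6, the nearest protein-coding start sites, had neither. The DR2, 33311 bp from ADRA2B (6.65, 27 fragments), had both.

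Exact direct repeats were rare. Over all regions, DR5 was more frequent in gained than in shared regions, while the intervals of gained and lost regions overlapped. On either strand, DR5 letters occurred in 10 of 20088 gained regions (0.0498%, 0.027 to 0.0916), in 0 of 5648 lost regions (upper bound 0.068%) and in 7 of 58407 shared regions (0.012%, 0.00581 to 0.0247). Among 35116 RefSeq promoters of GRCh38.p14, also 300 bp long, 2 held DR5 (0.0057%). Of the 10 gained regions with DR5, 7 had an ATRA peak and no DMSO peak, which is 7 of the 3625 gained regions of that kind (0.193%, 0.0936 to 0.398). With the relaxed DR5 half-site the shares were 0.189% of gained (0.138 to 0.26), 0.0885% of lost (0.0378 to 0.207) and 0.0925% of shared regions (0.0709 to 0.121), with 0.0883% of promoters. DR2 occurred in 7 gained, 1 lost and 16 shared regions and in 1 promoter, and DR1 in 6 gained, 2 lost and 14 shared regions and in 8 promoters, with overlapping intervals between the classes of region. In windows of 1 kb the DR5 intervals of gained and shared regions overlapped too, at 0.0946% (0.0606 to 0.148) and 0.0497% (0.0346 to 0.0713). They also overlapped among regions over 2.5 kb from start sites, at 0.0516% (0.0272 to 0.0981) and 0.0110% (0.00428 to 0.0283). There the relaxed DR5 stood at 0.195% of gained (0.140 to 0.272) and 0.107% of shared regions (0.0785 to 0.147). These are matches of letters, and whether a receptor was bound was not tested.

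Letters of myeloid transcription factor motifs also differed between gained and lost regions. GAGGAAGT, letters bound by PU.1, the myeloid master regulator encoded by SPI1, occurred on either strand in 5.01% of gained regions (4.72 to 5.32), 2.07% of lost regions (1.73 to 2.48), 3.16% of shared regions (3.02 to 3.31) and 2.59% of promoters. The AP-1 letters TGANTCA, recognised by FOS and JUN family dimers, went the other way, with 9.92% of gained (9.51 to 10.3), 12.6% of lost (11.8 to 13.5), 10.0% of shared regions (9.76 to 10.2) and 7.71% of promoters. Among regions with a −log10 q of at least 5 the PU.1 shares were 5.94% of gained and 2.08% of lost regions, and the AP-1 shares were 9.21% and 15.6%. The GC box GGGCGG occurred in 6.29% of gained, 7.91% of lost and 16.2% of shared regions and in 45.0% of promoters. TTGCNNAA (C/EBP) stood at 17.8%, 16.2% and 15.5%, with 10.5% of promoters, and TGTGGTTT (RUNX) at 2.92%, 2.797% and 2.97%, with 1.53% of promoters. Among regions over 2.5 kb from start sites, C/EBP letters did not separate gained from shared regions, at 18.3% (17.7 to 18.9) and 18.1% (17.7 to 18.5). There RUNX letters were less frequent in gained regions, at 3.00% (2.76 to 3.26), than in shared regions, at 3.74% (3.55 to 3.94), and PU.1 letters stood at 5.12% of gained, 2.101% of lost and 3.92% of shared regions. Motifs were counted separately, and matches of different motifs may overlap in a region.

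The strongest gained and lost regions with these letters, chosen after their values were seen, show what such summits look like. Capitals mark the PU.1 letters in 2 gained regions and the AP-1 letters in 2 lost regions.
PU.1 letters, gained, chr15:70290063-70290110, plus strand: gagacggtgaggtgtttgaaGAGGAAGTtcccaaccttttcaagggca
PU.1 letters, gained, chr6:126157182-126157229, minus strand: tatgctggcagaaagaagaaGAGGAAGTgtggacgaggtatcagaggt
AP-1 letters, lost, chr2:152491410-152491456, plus strand: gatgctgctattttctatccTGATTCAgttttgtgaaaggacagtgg
AP-1 letters, lost, chr20:987088-987134, plus strand: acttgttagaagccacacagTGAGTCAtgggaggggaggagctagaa

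The first, between genes, had a −log10 q of 28.1 with 67 fragments and an ATRA peak without a DMSO peak. The second, in an intron of TRMT11, a tRNA methyltransferase gene, had 27.8 with 62 fragments and a peak in neither of those lists. The third is the strongest lost region, in FMNL2, a formin gene that acts on actin, with 25.8 and 53 fragments. The fourth, in an intron of RSPO4, which encodes an R-spondin, had 14.0 with 45 fragments and a peak in neither.

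Gained and lost regions resembled each other in size and strength and both stood far below the shared regions. The median width was 317 bp in gained (quartiles 223 and 487), 284 bp in lost (217 and 401) and 1373 bp in shared regions. Gained regions together covered 7.94 Mb, lost regions 1.91 Mb and shared regions 106.9 Mb. The median −log10 q of the strongest peak was 3.44 in gained (quartiles 2.54 and 5.81), 3.19 in lost (2.36 and 4.59) and 27.7 in shared regions (10.8 and 66.5). Behind a median gained region stood 22 fragments at the summit over a background of 3.96, and behind a median lost region 18 over 3.56. The authors' median fold over input was 3.77, 3.50 and 10.2, respectively. Peaks with a −log10 q of 5 or more made up 6006 gained (29.9%), 1106 lost (19.6%) and 52465 shared regions (89.8%), and of at least 20 by 121 gained and 8 lost regions.

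**Figure D1:**
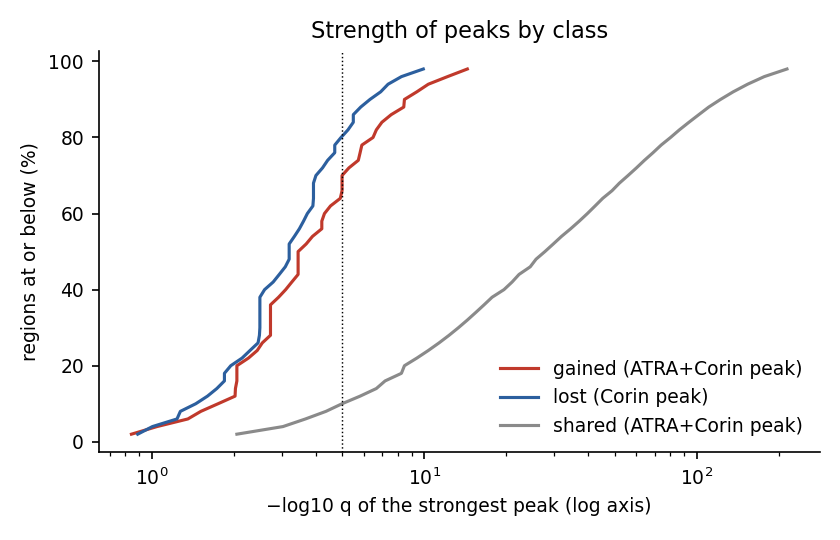
Cumulative share of regions (y axis, %) at or below a given −log10 q of their strongest peak (x axis, log scale), for gained, lost and shared regions. The dotted line marks a −log10 q of 5, below which most gained and lost regions lie and above which 89.8% of the shared regions lie.

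The ATRA and DMSO lists were not used to define these regions and share no library with the lists that were, so each region was looked up in them. An ATRA peak without a DMSO peak was present in 3625 gained regions (18.0%, 17.5 to 18.6), 436 lost regions (7.72%, 7.05 to 8.44) and 4365 shared regions (7.47%), against 10.0% of all regions. A DMSO peak without an ATRA peak was present in 699 gained (3.48%, 3.24 to 3.74), 664 lost (11.8%, 10.9 to 12.6) and 1653 shared regions (2.83%), against 3.58% of all regions. Per region with the DMSO peak alone, there were 5.19 with the ATRA peak alone among gained regions, 0.657 among lost and 2.64 among shared regions. Most gained regions (13797, 68.7%) and most lost regions (4033, 71.4%) had a peak in neither list, while 79.1% of shared regions had both. An ATRA peak alone means one without a DMSO peak, and the reverse. In 1967 gained regions (9.79%) and 515 lost regions (9.12%), both the ATRA and the DMSO list held a peak.

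The contrast between gained and lost regions widened with the strength of the peak. At a −log10 q of at least 5 the gained regions held 1590 with the ATRA peak alone and 196 with the DMSO peak alone, a ratio of 8.11, against 91 and 203 among lost regions, a ratio of 0.448. At a −log10 q of at least 10 the ratios were 13.7 (481 and 35 regions) and 0.206 (7 and 34 regions). At 20 or more, 57 of the gained regions had the ATRA peak alone and 1 had the DMSO peak alone, and the 8 lost regions held 0 and 3. Among shared regions the ratio rose too, with 3.27 at 5 or more, 4.04 at 10 or more and 4.81 at 20 or more. The ATRA list covered 83.7 Mb with a median −log10 q of 20.4, and the DMSO list 73.4 Mb with 13.1. Among regions under 10, where the classes are closer in strength, the ratio was 4.73 for gained, 0.681 for lost and 1.99 for shared regions. The order within lost regions depended on how peaks were matched. With single peaks and a reciprocal overlap of 50%, 14.1% of 24511 lost peaks had an ATRA peak alone and 6.37% a DMSO peak alone, the opposite order, while gained peaks kept theirs at 16.6% and 4.47%.

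**Figure D2:**
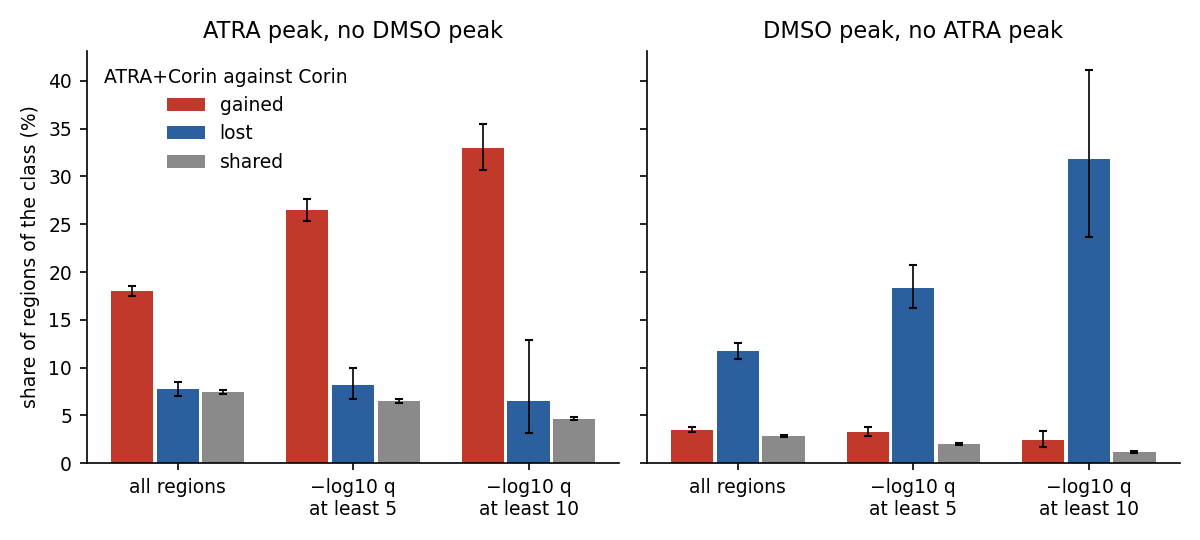
Share of gained, lost and shared regions (y axis, %) that held an ATRA peak and no DMSO peak (left) or a DMSO peak and no ATRA peak (right), for all regions and for those with a −log10 q of at least 5 or 10. Bars start at 0 and error bars are 95% Wilson intervals. The gained bars on the left rise from 18.0% with strength, and the lost bars on the right rise from 11.8%.

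Gained and lost regions lay away from start sites. Within 1 kb of an annotated start site were 1073 gained regions (5.34%, 5.04 to 5.66) and 351 lost regions (6.21%, 5.61 to 6.87), compared with 33.0% of shared regions. Introns held 58.6% of gained, 59.8% of lost and 35.2% of shared regions, other exons 7.07%, 6.60% and 8.23%, and sequence outside genes 29.0%, 27.4% and 23.6%. The median distance to a start site was 13572.5 bp for gained, 12078 bp for lost and 6971 bp for shared regions. GC content averaged 46.6% ± 7.87 in gained, 47.4% ± 8.33 in lost and 51.1% ± 9.66 in shared regions (SD over regions), and CpG counts per 300 bp averaged 3.55, 4.17 and 7.34.

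**Figure D3:**
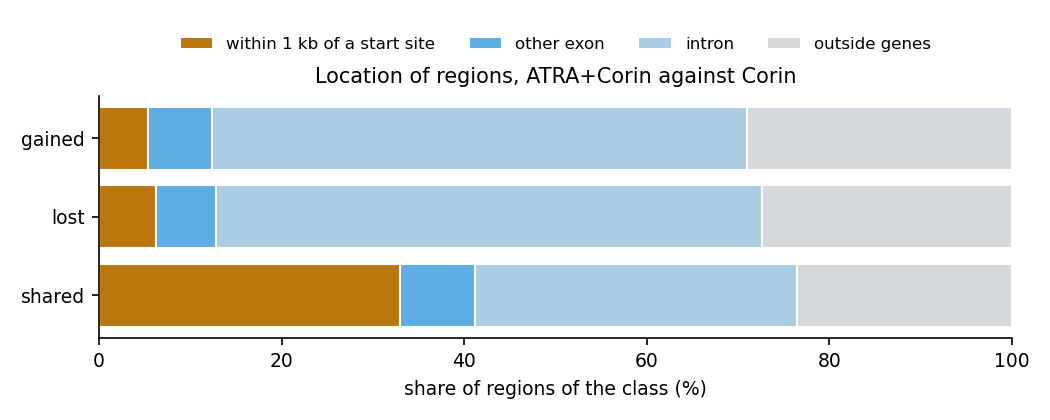
Stacked shares (x axis, %) of gained, lost and shared regions within 1 kb of a start site, in another exon, in an intron or outside genes. The start-site segment is 5.34% of gained, 6.21% of lost and 33.0% of shared regions.

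Many gained and lost regions flanked sites marked in both lists. The median gained region lay 2780.5 bp from the nearest shared region, and 35.8% lay within 1 kb of one and 71.4% within 10 kb. Lost regions lay closer, at a median of 1281 bp, with 46.6% within 1 kb. Gained regions also lay near one another, with 44.7% within 10 kb of another gained region at a median of 13614 bp. For lost regions these values were 23.5% and 65813.5 bp, and the lost set has fewer members. By chromosome the gained share ran from 17.9% of regions on chromosome 19 to 26.6% on chromosome 5, and the lost share from 5.39% on chromosome 19 to 8.40% on chromosome 13.

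The single strongest gained region, chr15:67041144-67044179, lay in an intron of a long noncoding RNA gene (ENSG00000259347), 21423 bp from the protein-coding start site of SMAD3, a transducer of TGF-beta signals. Its −log10 q was 163 with 262 fragments at the summit. The next were in an intron of MYOM1, a sarcomere gene (chr18:3178185-3179176, −log10 q of 75.5), in PLCB1, a phospholipase gene (chr20:8082679-8083778, 54.9), and near BCL2L10, a BCL2 family gene (chr15:52092567-52096351, 48.7). All 4 also had a peak in both the ATRA and the DMSO list. At the top of the ranking, then, gained meant that the peak was missing from the Corin list alone. Of the 30000 lowest peak numbers, 22 were left out of the Corin list used here. Whether a left-out peak lay at these regions was not tested, so they may be classed wrongly. The same limit holds for regions named below with peaks in all lists but Corin.

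The next 4 had an ATRA peak and no DMSO peak. The first lay in an intron of ALOX5, 5-lipoxygenase, which makes leukotrienes in myeloid cells (chr10:45383343-45384954, −log10 q of 46.4, 84 fragments, 9127 bp from the start site). The others lay 20667 bp from BATF3, an AP-1 family factor of dendritic cells (chr1:212677970-212679173, 46.3), 11202 bp from TTK, a mitotic kinase gene (chr6:79992357-79993447, 46.3), and in an intron of GNG2, a G-protein subunit gene (chr14:51865795-51868788, 43.99). Next in that group came an intron of NOL4L (chr20:32566248-32568862, 39.4) and the start of SIGLEC16.

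Some gained regions lay within 1 kb of an annotated start site, and the strongest of these were named after their values were seen. The first, 985 bp from the start of a long noncoding RNA gene (ENSG00000259712, chr15:52096557-52099538, −log10 q of 39.4, 95 fragments), had both an ATRA and a DMSO peak. SIGLEC16 (chr19:49970074-49970446, −log10 q of 38.3, 474 bp from the start) and SIGLEC11 (chr19:49960425-49960703, 26.9, 469 bp from the protein-coding start) encode paired lectin receptors of macrophages and microglia. The pair are near-identical copies, so the reads behind them may be divided uncertainly between the loci. A region over an annotated start of CDKN1A, the cell cycle inhibitor p21, reached 26.5 with 74 fragments (chr6:36675889-36676786), 1928 bp from the canonical start site. TNFAIP6, a hyaluronan-binding protein gene induced in inflammation, had a region over its start (chr2:151357145-151358391, 22.7, 54 fragments), and CHRNG, an acetylcholine receptor subunit gene, one 192 bp away (chr2:232538493-232539500, 28.1). The 5 regions at SIGLEC16, SIGLEC11, CDKN1A, TNFAIP6 and CHRNG had an ATRA peak and no DMSO peak. The regions 861 bp from the canonical start of ECM2 (26.9) and 21 bp from an annotated start of FNDC5 (22.1) had peaks in all lists but Corin. The canonical start of FNDC5 lay 1589 bp away.

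The strongest lost regions were weaker than the strongest gained ones. FMNL2 (chr2:152491242-152491943, −log10 q of 25.8, 53 fragments) and SMG6, a nonsense-mediated decay gene (chr17:2086386-2087770, 24.9), had peaks in both the ATRA and the DMSO list, so the peak was missing from ATRA+Corin alone. A region between genes (chr20:56867523-56868377, 25.4) and an intron of IL17RA, the interleukin-17 receptor (chr22:17090035-17090577, 22.4, 47 fragments), had a peak with Corin only. An intron of NUP210, a nuclear pore gene (chr3:13352489-13353544, 23.6, 53 fragments), and the TPSAB1 mast-cell tryptase gene (chr16:1241105-1241343, 21.4, 45 fragments, 400 bp from the start) had a DMSO peak and no ATRA peak. For both of these, peaks were present in the 2 lists without ATRA and missing from the 2 lists with it. TPSAB1 has near-identical neighbours, which makes its read assignment uncertain. Lost regions at the start sites of SMIM5 (14.9) and IBA57 (12.3), named after their values were seen, had peaks in all lists but ATRA+Corin. Like those at FMNL2 and SMG6, they may be classed wrongly. Of the 30000 lowest peak numbers, 17 were left out of the ATRA+Corin list, and whether these lay at such regions was not tested.

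Regions were then assigned to every protein-coding gene with its canonical start site within 50 kb, so that neighbours share regions. In sums and shares over several genes, a shared region of this kind was counted at each gene. Of 19951 genes, 11200 had a gained region (56.1%) and 5432 a lost region (27.2%). More gained than lost regions were near 9379 genes (47.0%) and more lost than gained near 2118 (10.6%), and 723 (3.62%) had a net of 5 or more. The median net over all genes was 0. Of the 9379 genes, 49.2% also had more gained than lost regions when the ATRA list was compared with DMSO, and 16.1% had more lost. Over all genes these shares were 35.0% and 15.7%. Of the 2118, 29.6% had more gained and 28.2% more lost without Corin, and of the 8454 genes with a net of 0, 20.7% and 12.1%.

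RCSD1, which encodes a regulator of actin capping protein, had the highest net, with 22 gained, 0 lost and 7 shared regions. The peak lists held 30 peaks in its window with ATRA+Corin, 10 with Corin, 11 with ATRA and 11 with DMSO. Its gained regions had −log10 q values from 0.945 to 15.6 (median 3.59), with 7 of at least 5 and 16 to 44 fragments, and 17 lay in introns. Of the 22, 1 had an ATRA peak and no DMSO peak and 21 had a peak in neither list, so the ATRA+Corin list alone was dense at this locus. With peaks within 1 kb merged the net was 4.

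MAPKAPK2, the stress kinase downstream of p38, had 17 gained and 0 lost regions (31, 16, 17 and 17 peaks with ATRA+Corin, Corin, ATRA and DMSO). TLR9, the receptor for unmethylated CpG DNA, had 16 and 0 (28, 12, 13 and 16 peaks), and PREX1, a Rac exchange factor of phagocytes, 15 and 0 (30, 23, 17 and 17). SPAG6, a sperm axoneme gene, AGFG1, a nucleoporin-like gene, and CPD, a carboxypeptidase gene, each had a net of 15. At SPAG6, 7 of 16 gained regions had an ATRA peak and no DMSO peak, whereas at AGFG1 this was 1 of 16 and at PREX1 0 of 15. With peaks within 1 kb merged the net was 1 at MAPKAPK2, 5 at TLR9 and PREX1 and 3 at SPAG6, AGFG1 and CPD. In windows of 10 kb it was 4 at MAPKAPK2, 1 at TLR9, 0 at PREX1 and SPAG6, 9 at AGFG1 and 2 at CPD.

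PIK3CG, the PI3-kinase gamma of leukocytes, had 14 gained, 0 lost and 3 shared regions, with 18, 8, 4 and 8 peaks in the lists in the same order. The strongest, chr7:106876163-106877906 in an intron, had a −log10 q of 32.8 with 84 fragments and no peak with ATRA or DMSO. Of the 14, 7 reached 5, 3 had an ATRA peak alone and 11 had a peak in neither list. Many of them adjoined one another, and the net was 2 with peaks within 1 kb merged and 4 in windows of 10 kb.

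The lowest net values were smaller in size. At TMEM121B and the overlapping window of IL17RA, 9 regions were lost and 1 was gained, with 26 Corin peaks against 16 with ATRA+Corin, 9 with ATRA and 11 with DMSO. All 9 had a peak with Corin alone, and 5 of them lay in introns, 2 with a −log10 q of at least 5. ATP8B4, a phospholipid flippase gene, had 8 lost and 1 gained region (12, 21, 9 and 10 peaks with ATRA+Corin, Corin, ATRA and DMSO). URI1, a prefoldin-like chaperone gene, had 6 lost and 0 gained, KBTBD11, a BTB domain gene, 6 and 0, and LNX2, a ubiquitin ligase gene, 7 and 1. With peaks within 1 kb merged the net was −1 at TMEM121B and URI1, −3 at ATP8B4 and LNX2 and 0 at KBTBD11, and in windows of 10 kb it was 0 at TMEM121B, ATP8B4 and LNX2. Without Corin the net was −3 at URI1, −1 at KBTBD11, 2 at ATP8B4 and 1 at LNX2.

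Each of the 6 retinoid receptor genes had more gained than lost regions, against 47.0% of all genes, but the numbers were small. Together they had 14 gained, 1 lost and 43 shared regions. RARG had 6 gained and 1 lost, RARA 3 and 0, RXRB 2 and 0, and RARB, RXRA and RXRG 1 and 0 each. RARA had 17 peaks with ATRA+Corin, 13 with Corin, 13 with ATRA and 16 with DMSO. Of its 3 gained regions, 1 had a DMSO peak alone and 2 a peak in neither list, and without Corin its net was −3. Of the 14, only 1 reached a −log10 q of 5, at RARB.

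Retinoid metabolism was led by DHRS3, the retinaldehyde reductase that ATRA is known to induce. Of the list's 15 genes, 6 (40%) had more gained than lost regions, below the 47.0% of all genes, 0 had more lost, and the median net was 0. DHRS3 had 12 gained, 0 lost and 7 shared regions, and 21 peaks with ATRA+Corin, 9 with Corin, 10 with ATRA and 9 with DMSO. Its gained regions had −log10 q values from 0.592 to 9.23 (median 3.12), and 3 of the 12 reached 5. Those with an ATRA peak alone also numbered 3, and 9 had a peak in neither list. A single shared peak over its start site ran from −4.31 to 10.4 kb with ATRA+Corin, from −3.81 to 4.44 kb with Corin, from −3.76 to 4.89 kb with ATRA and from −3.11 to 4.09 kb with DMSO. The peak reached further downstream with ATRA+Corin than in the other 3 lists. Its −log10 q was 142 with ATRA+Corin, 137 with Corin, 327 with ATRA and 163 with DMSO. In the same order, the shared peak near 21 kb had 55.4, 173, 129 and 160. The one near −15 kb had 284, 208, 304 and 127. The net of 12 was 3 with strong peaks in both lists and 3 with merging.
DHRS3 intron, summit of the strongest gained region, chr1:12601065-12601264, plus strand: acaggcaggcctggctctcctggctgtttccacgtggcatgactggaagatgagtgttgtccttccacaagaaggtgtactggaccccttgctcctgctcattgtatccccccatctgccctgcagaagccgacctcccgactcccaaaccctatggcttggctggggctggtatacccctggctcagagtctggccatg

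The sequence is shown because this was the strongest gained region near DHRS3, 16905 bp from the start site with 35 fragments. It had an ATRA peak and no DMSO peak. The region, from 16.90 to 17.21 kb, adjoined a Corin peak that ran from 13.12 to 16.87 kb. Its ATRA peak was the end of a long peak from 13.8 to 17.1 kb over that same shared site. The sequence held none of the motif letters searched. CYP26A1, the retinoic acid hydroxylase and a classical ATRA target, had 0 gained, 0 lost and 3 shared regions, with 3 peaks in each list. DHRS9 had 4 gained and 1 lost region, STRA6, the retinol transporter, 2 and 0, and ALDH1A2, which makes retinoic acid, 2 and 2.

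Among 18 known retinoid response genes, 14 (77.8%) had more gained than lost regions and 1 had more lost (5.56%), against 47.0% and 10.6% of all genes, with a median net of 2. Of the regions near them 30.6% were gained and 2.59% lost, against 19.5% and 5.88% over all genes. TGM2, tissue transglutaminase, had the highest net, with 15 gained, 1 lost and 7 shared regions. Its window held 22 peaks with ATRA+Corin, 8 with Corin, 13 with ATRA and 8 with DMSO, so the 2 lists with ATRA both held more than the 2 without. The 15 gained regions were weak, with −log10 q values from 1.47 to 8.53 (median 3.07) and 15 to 33 fragments, and 2 reached 5. Only 1 of the 15 gained regions near TGM2 had an ATRA peak and no DMSO peak, and 14 had a peak in neither. The net of 14 fell to 1 when both lists were limited to strong peaks (−log10 q of at least 5) and to 6 with peaks within 1 kb merged.

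The start site of TGM2 itself fell in a shared region, yet its coverage differed. With ATRA+Corin 1 peak ran from −4.95 to 2.55 kb across the start, and with ATRA alone peaks ran from −4.95 to −1.58 and from −1.45 to 1.71 kb. With Corin the peak ended at −1.15 kb, and with DMSO the last upstream peak ended at −1.12 kb, so the start site was covered in both lists with ATRA and in neither list without it. Upstream, the Corin list had a peak from −33.0 to −30.6 kb (−log10 q of 44.2), of which the ATRA+Corin list kept a peak from −31.4 to −31.1 kb (5.67). ATRA and DMSO peaks lay there from −31.9 to −30.4 kb (15.9) and from −32.0 to −30.7 kb (42.2).

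Other members of the response list were HIC1 with 7 gained and 1 lost region, SMAD3 with 6 and 0 and ASB2 with 4 and 0. MEIS2, a homeobox gene, had 0 gained and 1 lost. CD38, whose product is a surface enzyme known to be induced by ATRA in myeloid cells, had 0 gained and 0 lost regions with Corin present, with 6 peaks for ATRA+Corin, 9 for Corin, 14 for ATRA and 7 for DMSO. Without Corin, ATRA gave 7 gained and 0 lost regions there.

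**Figure D4:**
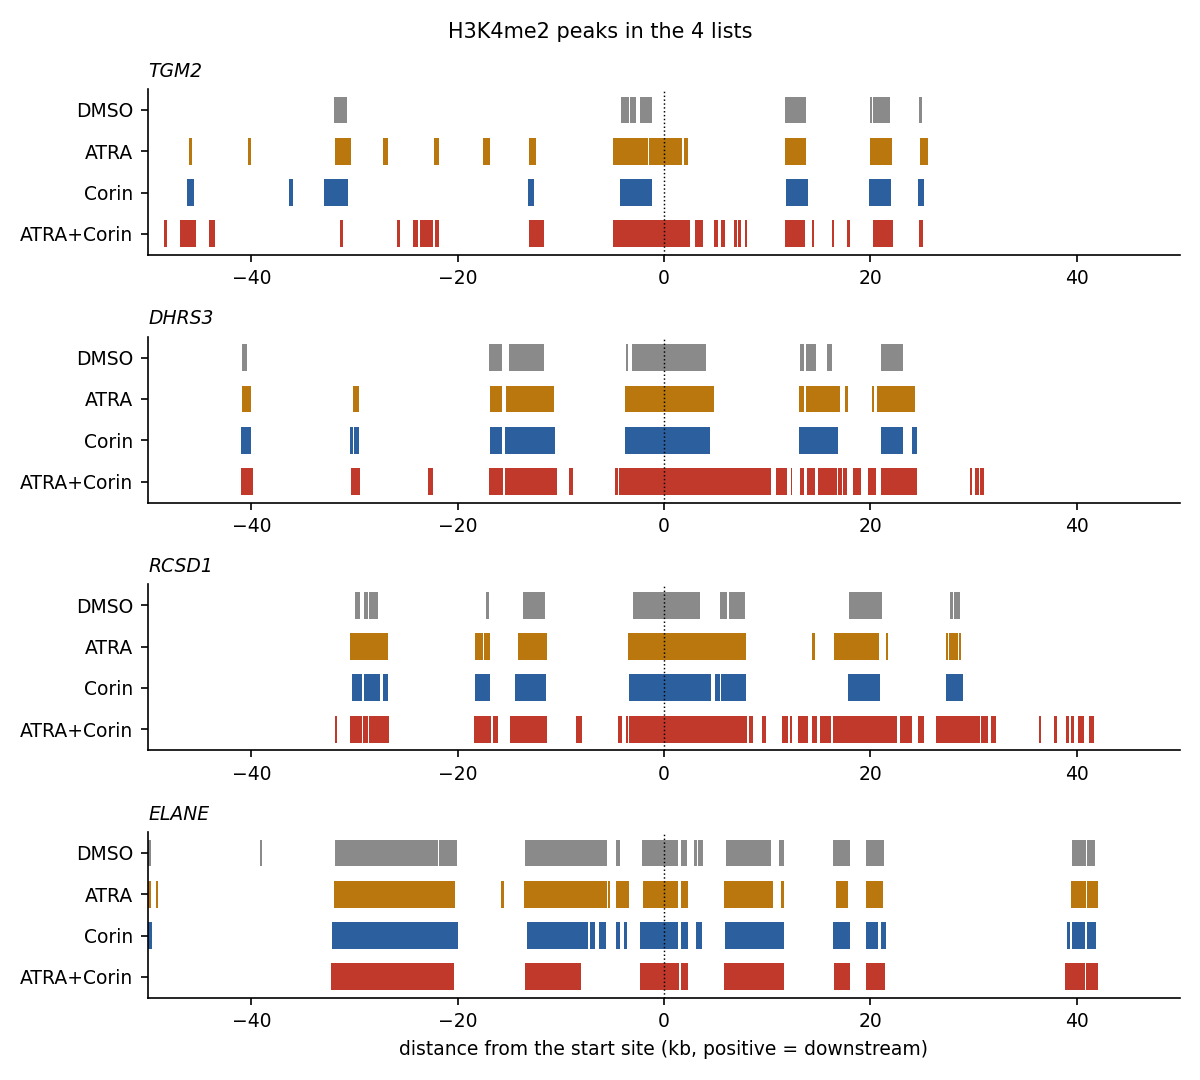
H3K4me2 peaks (boxes) of the DMSO, ATRA, Corin and ATRA+Corin lists around the start sites of TGM2, DHRS3, RCSD1 and ELANE (x axis, distance in kb, positive is downstream). TGM2, DHRS3 and RCSD1 hold 22, 21 and 30 ATRA+Corin peaks against 8, 9 and 10 Corin peaks, and the ELANE window has 5 lost and 0 gained regions.

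Monocyte and macrophage genes were mixed, with 11 of 20 (55%) showing more gained and 6 (30%) more lost regions against 47.0% and 10.6% of all genes, and 11.8% of their regions lost against 5.88% over all genes. FCGR1A, the high-affinity Fc receptor, had 7 gained and 1 lost region, with 15 peaks with ATRA+Corin, 9 with Corin, 12 with ATRA and 8 with DMSO; the gene has near-identical copies. MERTK, a receptor for apoptotic cells, had 5 and 0, and CD86, a costimulatory ligand, 4 and 0. LYZ, lysozyme, had 2 gained and 6 lost regions. IRF8, the monocyte lineage factor, had 5 and 6, and without Corin its net was −5, with 5 lost regions and 0 gained. With peaks within 1 kb merged the net turned to 1 at LYZ and to 4 at IRF8.

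Granulocyte genes split by locus. Of 18, 12 (66.7%) had more gained and 3 (16.7%) more lost regions, against 47.0% and 10.6% of all genes, and 10.7% of their regions were lost, against 5.88%. The 3 were PRTN3, ELANE and AZU1, the neutrophil protease cluster on chromosome 19, whose windows overlap. The same 5 lost regions were counted at each of the 3 genes, and so 3 times among the 22 lost regions of the list. Both lost shares of this list therefore rest largely on 1 locus. The 5 lost regions of the cluster had −log10 q values from 1.71 to 4.95, none reaching 5. Of these, 3 had both an ATRA and a DMSO peak, 1 an ATRA peak alone and 1 a DMSO peak alone. At PRTN3 the net of −5 became 0 with strong peaks in both lists or with merging. The strong peak over the ELANE start site was shared, with −log10 q of 177 in the ATRA+Corin and 143 in the Corin list. CEACAM8, a granulocyte adhesion molecule, had 8 gained and 0 lost regions, FPR2, a formyl peptide receptor, 7 and 1, and MMP8, neutrophil collagenase, 6 and 1. CEACAM8 had 12 peaks with ATRA+Corin, 5 with Corin, 7 with ATRA and 10 with DMSO.

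Myeloid transcription factor genes had more gained regions in 13 of 18 cases (72.2%, against 47.0% of all genes) and more lost in 1 (5.56%, against 10.6%), IRF8. CEBPB had 7 gained and 0 lost, BATF3 5 and 0, and SPI1, the PU.1 gene, 4 and 0. Among 12 leukocyte integrin and adhesion genes, 8 (66.7%) had more gained and 3 (25%) more lost regions, against the same 47.0% and 10.6%. ITGB2, the common beta chain of the leukocyte integrins, had 7 gained and 0 lost, ITGAL 7 and 1, ITGB7 6 and 1 and ITGAM, the CD11b gene, 2 and 0. ITGA4 had 0 gained and 1 lost, and its net was 1 with strong peaks in both lists. All 7 genes of the NADPH oxidase list had more gained than lost regions, against 47.0% of all genes, with a median net of 3. Of their regions 9.09% were lost, against 5.88%. The list also counts RAB27A, a GTPase gene of vesicle transport, with 3 gained and 2 lost. RAC2 had 6 and 3, and CYBB, the catalytic subunit, 4 and 1.

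Interferon response genes had more gained regions in 13 of 16 cases (81.2%) and more lost in 0, against 47.0% and 10.6% of all genes, and 2.24% of their regions were lost, against 5.88%. OAS1 had 6 gained and 0 lost regions, of which 4 reached a −log10 q of 5, with 16 peaks with ATRA+Corin, 10 with Corin, 12 with ATRA and 8 with DMSO. OAS3, its neighbour, had 5 and 0. Without Corin the nets were 5 at OAS1 and 4 at OAS3, also above 0. Of 15 chemokine and cytokine genes, 12 (80%) had more gained and 1 (6.67%) more lost regions, against 47.0% and 10.6%. TNF had 5 and 1, IL1B and CCL2 4 and 0 each, and CCR7, a homing receptor, 0 gained and 3 lost.

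Genes for CoREST subunits, p300 and related coregulators had the highest gained share of the lists, 36.4% of nearby regions, against 19.5% over all genes. More gained regions were found at 11 of 14 genes (78.6%, against 47.0% of all genes). NCOA3, a nuclear receptor coactivator, had 11 gained and 0 lost regions, with 19 peaks with ATRA+Corin, 8 with Corin, 9 with ATRA and 4 with DMSO. ZMYND8, a chromatin reader encoded close by on chromosome 20, had 8 and 0, and NCOR1, the nuclear receptor corepressor, 6 and 0. KDM1A, which encodes LSD1, had 0 and 0, EP300 2 and 1 and RCOR2 0 and 1. With strong peaks in both lists the net turned to −1 at NCOR1 and to 1 at RCOR2.

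In the TGF-beta and SMAD list, 9 of 13 genes (69.2%) had more gained and 3 (23.1%) more lost regions, against 47.0% and 10.6% of all genes, and 23.8% of their regions were gained. SMAD3 stood at 6 and 0, SKIL and SMAD2 at 5 and 0 each, and SMAD7, the inhibitory SMAD, at 0 gained and 3 lost. Cell cycle inhibitor genes had more gained regions in 7 of 9 cases (77.8%, against 47.0%). CDKN1B, p27, had 8 gained and 1 lost region, BTG2 5 and 0, CDKN1A 4 and 0 and CDKN2B, p15, 1 gained and 3 lost. The net turned to 1 at SMAD7 in windows of 100 kb and to 1 at CDKN2B with peaks within 1 kb merged. Leukaemia stem and progenitor genes had more gained regions in 9 of 12 cases (75%) and more lost in 0, against 47.0% and 10.6% of all genes. Of their regions 27.1% were gained and 11.0% lost, against 19.5% and 5.88%. HOXA9 had 5 and 2 (a net of −2 with strong peaks in both lists), MEIS1 3 and 0 and BCL2 2 and 0. This list's net was 19 in all, and it became −3 when both lists were limited to a −log10 q of at least 5.

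Housekeeping genes had the lowest gained share, 13.8%, with 6 of 12 (50%) showing more gained and 2 (16.7%) more lost regions against 47.0% and 10.6% of all genes and a median net of 0.5. TUBB had 8 gained and 0 lost regions and RPLP0 0 gained and 3 lost, with a net of 1 in windows of 100 kb. Apart from the marker lists, every other list had a gained share between 23.04% and 36.4%, above the 19.5% over all genes, and their median nets ran from 0 to 3. Myeloid markers stood at 21.4% and markers of other lineages at 20.2%. How far these shares follow from the number of regions already near such genes was not tested.

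**Figure D5:**
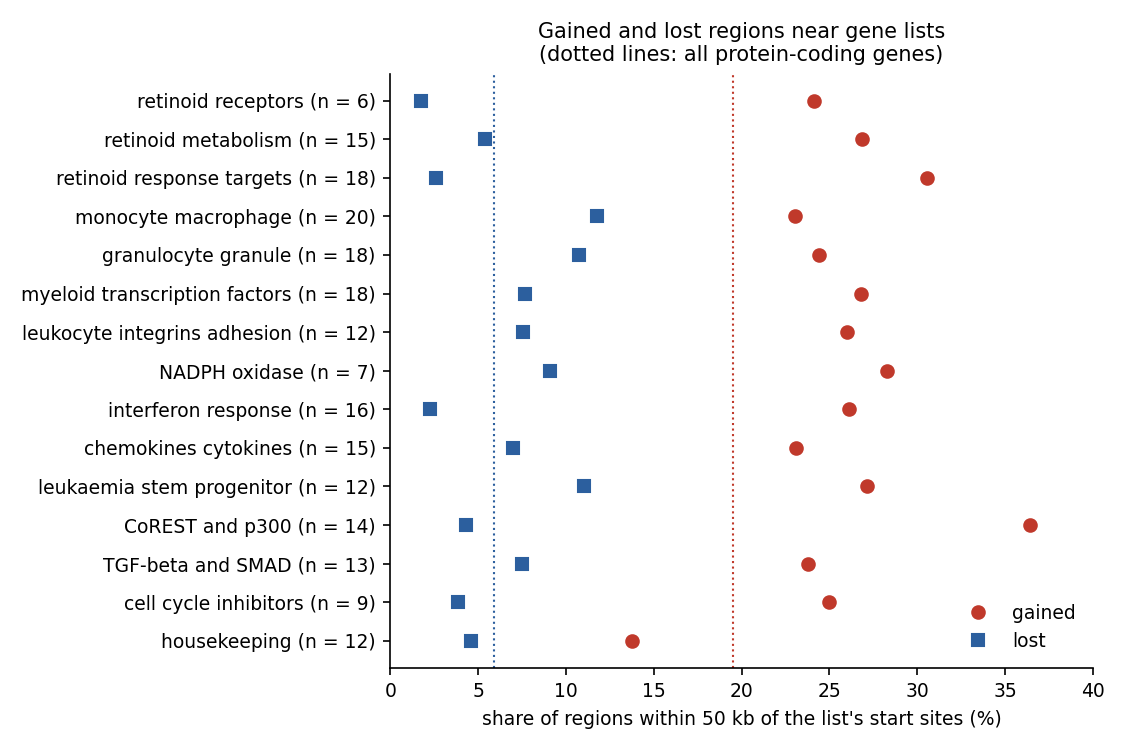
Share of regions within 50 kb of each list's start sites (x axis, %) that were gained (circles) or lost (squares). Dotted lines mark the values over all protein-coding genes, 19.5% gained and 5.88% lost, and the housekeeping list alone has a gained share below its line.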

How the data were processed

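H3K4me2 and input libraries (75 bp, paired-end) of 4 treatments were used as 4 deposited peak lists, 1 per treatment. Per the submitters' processing notes, Trimmomatic, Bowtie2, Picard and MACS2 were used with hg38; versions and thresholds are not given in the sources used here. The list names describe optimal peaks reproducible by overlap. The deposited score is, in nearly all peaks, 10 times −log10 p, capped at 1000. The authors' caller also gave a fold over input (a ratio), a −log10 p and a −log10 q per peak, and a summit offset. Of the 30000 lowest peak numbers, 16 to 22 per list were left out of the lists used here, and regions at those peaks may be classed wrongly.

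Regions were built in Python 3.11.15 (pandas 2.3.3, pysam 0.24.0) on 23 chromosomes, with 0 peaks past a chromosome end. Annotation was GENCODE release 44. Motif letters were sought in 300 bp around the summit of the strongest peak. Depth per library is not in the lists; fold and −log10 p were solved for whole summit fragments in 99.8% of ATRA+Corin and 99.99% of Corin peaks, with a tolerance of 0.05 for whole, and a deeper list detects weaker peaks. The code recovered known answers on simulated data.

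No test across treatments was possible. Members and gene lists were chosen with earlier results of these data known. Named are the 8 gained and 6 lost regions with the highest −log10 q, the 8 genes with the highest and 5 with the lowest net within 50 kb (1 per group of overlapping windows), the 3 highest members of each list and its lowest if below 0, and TGM2, DHRS3, CYP26A1, RARA, RARB, CD38, ITGAM and CD86. Some members under this rule are not reported here. Other members named were chosen after their values were seen. Alternatives were thresholds, equal peak numbers, equal depth, merging within 1 kb, reciprocal overlap, and other gene, promoter and motif windows. Added after the data were examined were a −log10 q of 20, regions under 10, regions over 2.5 kb from start sites, relaxed half-sites and start-site regions.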

Additional observations from a re-analysis of the deposited data

Results flagged for a closer look

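At 8 genes picked by the naming rule, the net of gained minus lost regions had opposite signs with and without Corin. That is, it differed in sign when ATRA was added to Corin and when ATRA was given without it. Genes named above but outside that rule did so too, namely RXRA (1 with Corin and −1 without), RAB27A (1 and −2), CEBPA (1 and −1) and CD68 (−1 and 1). The difference was not tested, since each treatment has 1 list. Opposite signs were also common over all genes. Of the 9379 genes with more gained regions with Corin, 16.1% had more lost without it. Of the 2118 with more lost, 29.6% had more gained without it. The sign with Corin itself reversed at LYZ and CDKN2B with peaks within 1 kb merged. At ITGA4 it reversed when both lists were limited to a −log10 q of at least 5. The net was −7 with Corin and 2 without at ATP8B4, −6 and 1 at LNX2, and −4 and 1 at LYZ. At CDKN2B, the p15 gene, it was −2 and 5, and at ITGA4 −1 and 1. Among the 8, the other sign order was seen at RARA, with 3 and −3, at RAC2, with 3 and −2, and at CDKN1B, the p27 gene, with 7 and −1.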

How the results depend on the processing

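No paired analysis was possible because each treatment has 1 pooled list, and for the same reason no replicate could be left out. At equal depth there were 19998 gained and 5666 lost regions, against 20088 and 5648 in the main setting. That setting called no new peak and kept 83713 ATRA+Corin and 73828 Corin peaks. Its counts and shares were therefore nearly fixed, and the part played by depth was not tested. Peak strength, matching and window size moved counts or shares beyond counting error or 1.5 times. The cause was not tested in any case.

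Gained and lost regions numbered 11486 and 3476 when both lists were limited to a −log10 q of at least 5 (strong peaks), 6006 and 1106 with it on the side with the peak, 10761 and 2407 with peaks within 1 kb merged, and 34483 and 24511 as single peaks with reciprocal overlap. With equal numbers of peaks per list they were 13239 and 7843. Genes with more gained or more lost regions were 4977 and 947 with strong peaks on the side with the peak, and 4201 and 1345 in 10 kb windows. With equal peak numbers they were 6520 and 3812, and with merging 7212 and 1290.

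The share of gained regions with an ATRA peak alone was 25.6% with strong peaks in both lists, 26.5% with strong peaks on the side with the peak, 21.0% with equal peak numbers, 20.9% with merging, 16.6% by single peaks and 47.1% at a −log10 q of 20. With a DMSO peak alone it was 4.39% (strong in both), 3.78% (merging), 4.47% (single peaks) and 0.826% (at 20). Lost regions with an ATRA peak alone were 12.6% (strong in both), 9.64% (equal numbers), 14.1% (single peaks) and 0% (at 20), and with a DMSO peak alone 14.1% (strong in both), 18.4% (strong side), 13.3% (merging), 6.37% (single peaks) and 37.5% (at 20). Start-site shares were 6.36% of gained and 7.80% of lost regions with strong peaks in both lists, 5.99% and 8.23% on the side with the peak, 4.61% and 5.03% with merging, 10.6% and 13.3% by single peaks and 13.2% and 16.6% within 2.5 kb, and 5.71% of gained regions with equal numbers.

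In 1 kb windows the letters occurred in 0.0946% (DR5), 12.7% (PU.1) and 29.2% (AP-1) of gained and 7.33% (PU.1) and 38.9% (AP-1) of lost regions, and DR5 in 0.0497% of shared regions. With strong peaks they were 5.94% (PU.1) and 9.21% (AP-1) of gained and 15.6% (AP-1) of lost regions, and relaxed DR5 gave 0.189% and 0.0885%.

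The sign of the net reversed for leukaemia stem and progenitor genes (−3 with strong peaks in both lists, −2 with equal numbers), housekeeping genes (−1 in 10 kb), LYZ (1 with merging), IRF8 (4 with merging, 1 in 10 kb), ITGA4 (1), HOXA9 (−2, and −2 with equal numbers), NCOR1 (−1) and RCOR2 (1), the last 4 with strong peaks in both lists, RCOR2 (2), SMAD7 (1) and RPLP0 (1) in 100 kb, and CDKN2B (1 with merging). At TGM2 the net of 14 fell to 1 with strong peaks in both lists and at DHRS3 the net of 12 fell to 3.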
